A study of Mus musculus with 12 samples.

Results

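Splicing factors and heterogeneous nuclear ribonucleoproteins (hnRNPs) were read across 12 libraries of sorted mouse hematopoietic stem cells. The members were the genes whose symbols begin with Srsf, Hnrnp, Sf3a, Sf3b, Snrp or U2af followed by the usual member letters or digits, with at least 50 counts summed over the 12 libraries. Of the 35976 gene symbols in the files, 54 matched by name and 52 passed that count. They were 10 Srsf, 20 Hnrnp, 9 Sf3a or Sf3b, 11 Snrp and 2 U2af genes. Sf3a2, with 446 counts in all, was the lowest inside the limit, and Srsf12 with 10 counts and Snrpn with 0 lay outside it. The choice used no difference between groups, and all 52 members passed the filter on low counts in each of the fits below.

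The cells carried the surface phenotype Lin- ckit+ Sca1+, a gate that also holds multipotent progenitors. Libraries were 3′ tag libraries, in which reads come from the end of a transcript. The 6 groups had 2 libraries each. Young mice were 2 months old and old mice 24 months old, and either wild type (WT) or labelled CD38 knockout (KO). Cells of young mice were profiled directly after isolation (young fresh) or after 24 hours of culture with cytokines (stimulated), and cells of old mice directly after isolation only (old fresh). The labels did not name the cytokines, the strain or the kind of knockout allele, and they did not say whether the libraries of a group came from separate animals. The p-values therefore measure only the spread between these libraries.

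Pre-mRNA splicing is carried out by the spliceosome, which is built from small nuclear ribonucleoproteins (snRNPs) on each intron. A ring of Sm proteins, encoded by Snrpb, Snrpd1, Snrpd2, Snrpd3, Snrpe, Snrpf and Snrpg, holds the spliceosomal RNAs, the U2AF heterodimer reads the 3′ splice site, and the SF3A and SF3B complexes anchor the U2 snRNP at the branch point. SR proteins, encoded by the Srsf genes, and hnRNPs then favour or disfavour individual sites. Several of these factors, SRSF2, SF3B1 and U2AF1 among them, are recurrently mutated in clonal hematopoiesis.

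The results below turn mostly on Snrpf, Hnrnpa0 and Snrpg, and their promoter sequences are shown for that reason. The sequences are from RefSeq on GRCm38.p6, the assembly also called mm10, and run 5′ to 3′ on the strand of the gene from 250 bases before the annotated start to 50 bases after it. Capitals mark the CCAAT box (letters CCAAT), an ETS family motif (letters CCGGAAG), the GC box (letters GGGCGG) and the E-box (letters CACGTG), each on either strand. Snrpf lies on the minus strand, and its window is chr10:93589609-93589908. Hnrnpa0 lies on the minus strand, with the window chr13:58128507-58128806. Snrpg lies on the plus strand, with the window chr6:86371290-86371589, and was chosen after its values were seen.
Snrpf: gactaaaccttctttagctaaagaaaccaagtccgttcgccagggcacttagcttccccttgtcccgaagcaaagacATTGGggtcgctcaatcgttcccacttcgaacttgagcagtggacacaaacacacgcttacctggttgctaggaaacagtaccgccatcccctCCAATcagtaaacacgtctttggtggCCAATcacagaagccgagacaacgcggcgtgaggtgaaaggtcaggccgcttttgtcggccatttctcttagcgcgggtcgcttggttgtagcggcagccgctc
Hnrnpa0: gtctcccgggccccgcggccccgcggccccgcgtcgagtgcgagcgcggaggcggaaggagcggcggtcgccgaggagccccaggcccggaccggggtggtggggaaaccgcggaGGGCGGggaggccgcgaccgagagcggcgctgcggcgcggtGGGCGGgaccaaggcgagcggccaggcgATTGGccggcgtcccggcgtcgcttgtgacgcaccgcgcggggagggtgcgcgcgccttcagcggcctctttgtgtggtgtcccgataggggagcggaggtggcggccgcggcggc
Snrpg: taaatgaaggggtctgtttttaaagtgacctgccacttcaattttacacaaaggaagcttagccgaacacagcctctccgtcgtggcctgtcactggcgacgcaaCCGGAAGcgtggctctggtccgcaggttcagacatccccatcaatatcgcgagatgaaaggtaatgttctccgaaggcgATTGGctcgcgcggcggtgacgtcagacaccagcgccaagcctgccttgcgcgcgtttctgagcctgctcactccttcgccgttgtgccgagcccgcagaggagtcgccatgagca
The Snrpf window held 3 CCAAT letters, Hnrnpa0 held 2 GC boxes and 1 CCAAT, and Snrpg held 1 CCGGAAG and 1 CCAAT. A promoter entry existed for 45 of the 52 members. CCGGAAG, on either strand, was in 16 of those 45 (35.6%), against 9.12% of 27025 promoters of the same length and 20% of the 8339 promoters of genes tested for stimulation. GGGCGG was in 71.1% of member promoters, against 35.9% of all and 65.7% of tested genes. CCAAT was in 48.9%, against 37.9% and 38.8%. CACGTG was in 11.1%, against 7.24% and 10.7%, and TATAAA in 13.3%, against 14.2% and 6.56%. These are matches of letters, not bound sites.

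Library depth was 1600155 to 1963635 counts in young fresh, 2692245 to 3249721 in stimulated and 3796591 to 5164720 in old fresh libraries. Neither stimulation nor age could therefore be told apart from depth. Between 13163 and 13450 genes had a count in stimulated libraries, against 9116 to 10231 in the fresh ones. Cd38 tags ran from 0.996 to 74.3 CPM, the tag count scaled to library size, and did not separate the genotypes, and such tags need not lie in the deleted part, so KO and WT below follow the labels. Young fresh WT replicate 1 had 0 CPM of Xist and 200 CPM of Y-linked genes, whereas the other 11 libraries had 197 to 743 CPM of Xist. Kit (190.2 to 422 CPM) and Ly6a, which encodes Sca1 (39.2 to 176 CPM), were present in every library. The T cell genes Cd3e, Cd3d and Cd3g summed to 1.66 CPM in stimulated WT replicate 1 and to 0 in every other library. Young fresh, stimulated and old fresh libraries had 0 to 3.14, 11.3 to 21.1 and 0.265 to 59.7 CPM of B cell transcripts. In the same order, summed mast cell and basophil transcripts were at 0 to 14.6, 29.1 to 68.7 and 0 to 19.0 CPM. Macrophage transcripts were at 0 to 34.4, 12.2 to 28.5 and 0 to 0.926 CPM. Summed over S100a8, S100a9, Ngp and Ly6g, neutrophil transcripts stood at 4479 to 8986 CPM in young fresh, 705 to 1381 in stimulated and 365 to 2916 in old fresh libraries. Ly6g itself was at 0 in 11 libraries and at 6.10 CPM in the other one. Summed proliferation markers were at 842 to 1109 CPM in young fresh, 1468 to 2079 in stimulated and 784 to 1540 in old fresh libraries. Summed over Pf4, Itga2b and Gp1bb, megakaryocyte transcripts were at 232 to 589 CPM in young fresh, 133 to 477 in stimulated, 543 and 356 in old fresh WT and 2290 and 1426 in old fresh KO libraries. The part of these differences in the results below was not tested.

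Together the 52 members took 1.85% to 2.81% of a library's counts. Their summed level in WT cells was 19464 ± 1278 CPM (SD, n = 2) when young and fresh, 20951 ± 175 when stimulated and 27875 ± 1722 when old. In KO cells the same sums were 20426 ± 411, 18946 ± 908 and 29575 ± 584. All 4 old libraries (26657 to 29988 CPM) lay above all 8 young ones (18304 to 21074). In these pooled-cell libraries, fewer cells of a kind and less RNA per cell cannot be told apart. CPM used library sizes scaled by TMM and were not divided by transcript length.

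**Figure D1:**
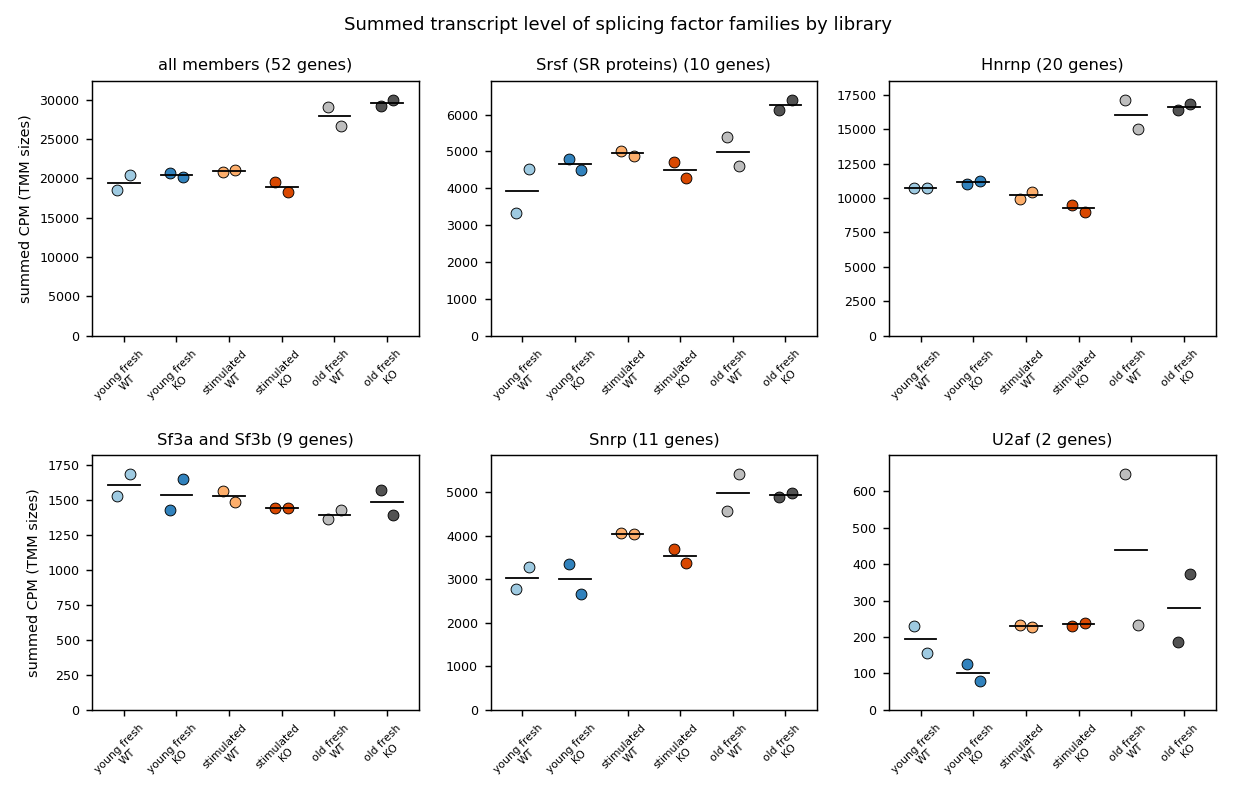
Summed level of the members in CPM (y axes, linear from 0) by family and by library, 6 groups of 2 libraries, with points for libraries and lines for group means. The old fresh libraries stand highest for all members, Hnrnp and Snrp, and the Sf3a and Sf3b sum stays between 1362 and 1685 CPM throughout.

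Hnrnpa0 gave a large share of that sum. It encodes an RNA-binding protein of the hnRNP A family that binds AU-rich elements of messenger RNAs, and it had the highest mean level of the Hnrnp genes, 4245 CPM over the 12 libraries. It made up 15.1% to 25.6% of member CPM in young fresh, 9.22% to 10.1% in stimulated and 19.8% to 27.7% in old fresh libraries. Without it, the other 51 members summed to 13807 to 17591 CPM in young fresh and 16448 to 19058 in stimulated libraries. In old fresh libraries they summed to 21032 to 22869 CPM. At these TMM sizes the old libraries still did not overlap with the young ones. On plain library totals the old libraries overlapped with the stimulated ones, but not with the young fresh ones.

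The families differed in how much they moved. The Snrp sum was 2655 to 3345 CPM in young fresh, 3376 to 4066 in stimulated and 4560 to 5411 in old fresh libraries. At these TMM sizes the 3 states did not overlap, but on plain library totals the stimulated and old fresh libraries did. The Sf3a and Sf3b sum was 1427 to 1685, 1441 to 1566 and 1362 to 1576 CPM in the same states, which overlapped. The Srsf sum was lowest in young fresh WT replicate 1 at 3321 CPM, ran from 4272 to 5012 in stimulated libraries and was highest in old fresh KO at 6123 and 6398. The U2af sum ran from 78.4 CPM in young fresh KO replicate 4 to 646 in old fresh WT replicate 1. These sums are descriptions without a test.

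Spread between the 2 libraries of a group was much narrower after stimulation. Among the 47 members with a mean of at least 50 CPM, the median fold between the libraries of a group was 1.09 and 1.10 in stimulated WT and KO, against 1.36 and 1.25 in young fresh and 1.33 and 1.23 in old fresh. No member differed by over 2-fold between stimulated replicates, while 6 and 12 did in young fresh WT and KO and 9 and 4 in old fresh WT and KO. The other genes at that level shared this, with 24.0% and 29.3% of 3670 genes over 2-fold in young fresh WT and KO against 0.490% and 0.872% in stimulated WT and KO. Srsf4, an SR protein gene, was the extreme among members, at 13.8 and 161 CPM in the young fresh WT libraries and 83.5 and 12 in their KO counterparts, but at 137 to 172 in the 4 stimulated libraries. Hnrnph2 had 0 counts in young fresh WT replicate 2 and KO replicate 3, and Sf3a2 in old fresh KO replicate 4. Genotypes were therefore compared in separate fits of the stimulated and of the fresh libraries. The comparison of stimulated with fresh cells needs both states in 1 fit, which shares 1 estimate of the spread per gene between them, and there only the alternative with voom weights gave each group its own.

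The first comparison asked how splicing factor transcripts differed after 24 hours of cytokine culture. The 4 stimulated libraries were compared with the 4 young fresh ones, genotypes weighted equally, by edgeR's quasi-likelihood test with Benjamini-Hochberg adjustment over 10786 genes. Among the 52 members, 5 rose (Snrpf, Snrpb, U2af2, Hnrnpdl and Hnrnpa2b1) and 1 fell (Hnrnpa0). Of all genes tested, 2.27% were called higher and 1.84% lower. With RLE in place of TMM scaling, Snrpd1 was called lower as well, so the split was 5 higher and 2 lower. DESeq2 called 9 members higher and 4 lower, and 8.08% and 6.2% of all genes. The median log2 change of the members was 0.15 and that of all genes 0.21, and 33 members had a positive and 19 a negative estimate. Both libraries of both stimulated groups lay above all 4 young fresh ones for 9 members (17.3%), against 13.9% of all genes, and below them for 4 members (7.69%), against 5.52%. Since most members are well covered, the share called was also read among genes that averaged 50 CPM or more. There 10.6% of 47 members were called higher and 2.13% lower, against 3.92% and 5.07% of 3670 genes, and the medians were 0.14 and -0.05.

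The Sm ring gene Snrpf, which encodes SmF, gave the smallest p of the members. It was at 65.1 and 99.8 CPM in the young fresh WT libraries and 153 and 159.9 in their KO counterparts, and at 383 and 465 in the stimulated WT libraries and 470.2 and 419.9 in the stimulated KO ones. The lowest stimulated library was well above the highest fresh one. Its level was 3.83-fold higher after stimulation (log2 change 1.94 ± 0.18 SE, adjusted p = 0.0017, edgeR). The call was kept under all 14 alternatives, with log2 changes of 1.81 to 2.11. The annotated 3′ end of Snrpf overlaps an exon of Ccdc38 on the opposite strand, and the strand setting of the authors' counting is not given in the sources used here, so tags of the pair may not be told apart.

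Other Sm ring genes were higher in estimate with 1 exception. Snrpb, which encodes SmB, was at 73.2 and 80.4 CPM in the young fresh WT libraries, 115 and 131 in their KO counterparts, 186 and 177 in the stimulated WT libraries and 184 and 170.5 in the stimulated KO ones. The lowest stimulated value was above the highest fresh one, and Snrpb rose by 0.88 ± 0.17 on the log2 scale (adjusted p = 0.030, edgeR). Snrpd2 and Snrpd3 had estimates of 1.37 and 0.74 that missed the threshold (adjusted p = 0.053 and 0.062, edgeR), although neither overlapped between states. Both were called higher with no filter, with DESeq2 and with the replicate block, and neither with all 12 libraries in 1 fit. Snrpd1 ran the other way, at 894 to 1050 CPM fresh and 638 to 830.2 stimulated, with a log2 difference of -0.47 and an adjusted p of 0.054 by edgeR. RLE scaling, DESeq2 and voom weights called it lower, and the fit of all 12 libraries did not. In all, 6 of the 7 Sm genes and 10 of the 11 Snrp genes had positive estimates, with medians of 0.74 and 0.64, and 2 of the 11 passed.

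U2af2, the large subunit of the U2AF dimer that reads the polypyrimidine tract, also rose. It was at 68.8 and 38.2 CPM in the young fresh WT libraries and 5.09 and 20.4 in their KO counterparts, and at 119, 132, 115 and 124 in the stimulated libraries. The stimulated libraries lay close together and above the 4 fresh ones, which ranged from 5.09 to 68.8. The log2 change was 2.23 ± 0.43 (adjusted p = 0.031, edgeR). Its partner U2af1 was at 58.0 to 161 CPM fresh and 95.5 to 115 stimulated, overlapped, and had an estimate of -0.03.

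Among the hnRNP genes, 2 rose and 1 fell. Hnrnpdl, a relative of hnRNP D, was at 245, 225, 129.9 and 227 CPM in the young fresh WT and KO libraries and at 399, 581, 356 and 496 in the stimulated WT and KO libraries. The stimulated values did not overlap the fresh ones, and the log2 change was 1.16 ± 0.23 (adjusted p = 0.032, edgeR). Hnrnpa2b1, which encodes a core A/B hnRNP, was at 817 and 961 CPM in the young fresh WT libraries and 1608 and 1287 in their KO counterparts, and at 1754 and 1822 in the stimulated WT libraries and 1606 and 1495 in the stimulated KO ones. It rose by 0.55 ± 0.11 on the log2 scale (adjusted p = 0.034, edgeR), but the KO libraries of the 2 states overlapped, and the WT libraries did not.

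Hnrnpa0 was the only member called lower. It was at 4754 and 3459 CPM in the young fresh WT libraries and 3125 and 3511 in their KO counterparts, and at 1920.0, 2016, 1908 and 1856 in the 4 stimulated libraries. Stimulated libraries lay within a narrow band well below all fresh ones. Its level fell by 0.94 ± 0.12 on the log2 scale, to 0.521 of the fresh level (adjusted p = 0.0071, edgeR).

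These calls differ in how far they rest on single libraries. Leaving out any 1 of the 4 stimulated libraries left Snrpf as the 1 member called higher, while the share of all genes called higher fell from 2.27% to between 0.183% and 0.296%. Snrpb, U2af2, Hnrnpdl and Hnrnpa2b1 missed the threshold each time, with adjusted p by edgeR of up to 0.223, 0.159, 0.165 and 0.205. Hnrnpa0 lost its call without stimulated KO replicate 3 or 4 (adjusted p up to 0.068, edgeR). Without young fresh KO replicate 3, 12 members were called higher and 3 lower, with 8.41% and 3.97% of all genes. Without young fresh KO replicate 4 the counts were 8 and 3, with 11.3% and 4.62% of all genes. Without young fresh WT replicate 1, the library without Xist, 5 were called higher and 1 lower (3.47% and 2.15% of all genes): Snrpf, Snrpb, U2af2 and Hnrnpa0 among them, but not Hnrnpdl and Hnrnpa2b1. Without young fresh WT replicate 2, 4 were called higher and 2 lower (3.32% and 1.80% of all genes), with U2af2 and Hnrnpdl lost. The sign of the estimate of each of the 6 genes was the same in every one of these runs. In the fit of all 12 libraries, Snrpb and Hnrnpa2b1 missed the threshold (adjusted p = 0.081 and 0.061, edgeR). With voom and a weight per group, Snrpb and U2af2 missed it (adjusted p = 0.082 and 0.055, limma). Snrpf, Hnrnpdl, Hnrnpa2b1 and Hnrnpa0 kept their calls there. Of the cell markers, Flt3 rose with stimulation (2.45 ± 0.42, adjusted p = 0.020, edgeR) and Hlf fell (-1.04 ± 0.14, adjusted p = 0.011, edgeR). Of 7 proliferation markers, Cdk1 and Top2a were called higher. The mast cell and basophil gene Mcpt8 was called higher too, and the neutrophil genes Ngp, S100a8 and S100a9 lower. The part of these markers in the stimulation calls was not tested.

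**Figure D2:**
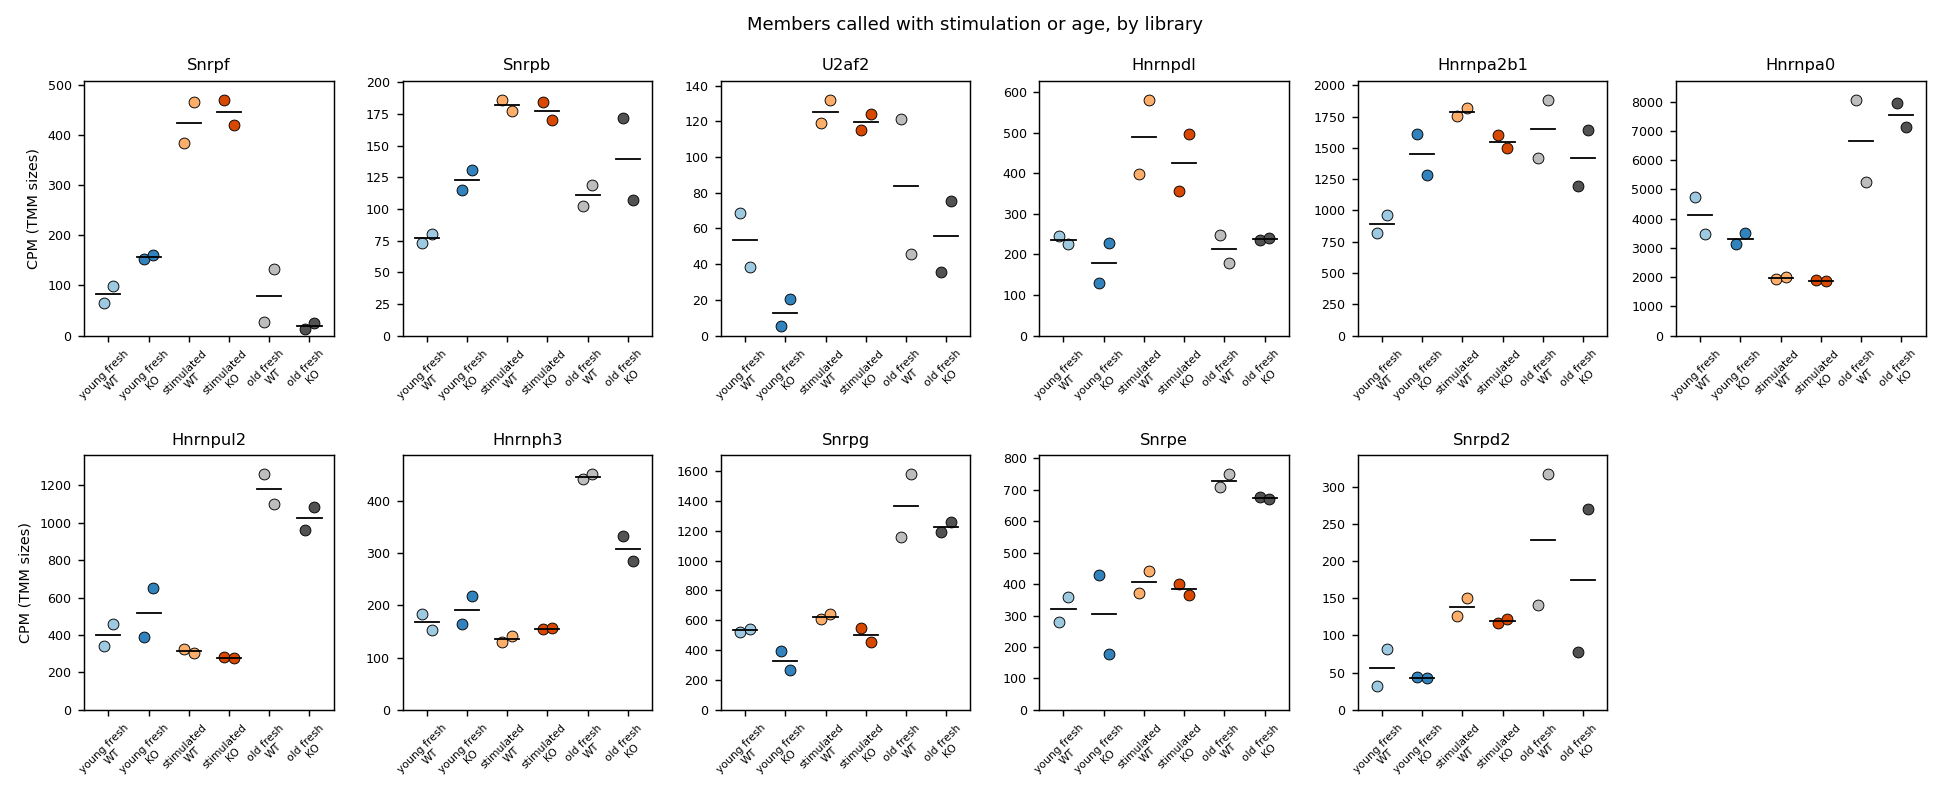
CPM (y axes, linear from 0) of the 11 members called with stimulation or with age, by library, 2 points a group and a line at the group mean. Snrpf, Snrpb, U2af2 and Hnrnpdl stand higher in stimulated than in young fresh libraries, Hnrnpa0 stands lower in stimulated and higher in old fresh ones, and Hnrnpul2, Hnrnph3, Snrpg and Snrpe stand apart in old fresh libraries.

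No SR protein gene passed the test, with 6 of 10 Srsf estimates positive, a median of 0.15 and a range from -0.10 to 1.22. Srsf2, whose product binds exonic enhancers, was at 511 and 584 CPM in the young fresh WT libraries, 635 and 535 in their KO counterparts, 850.5 and 939 in the stimulated WT libraries and 786 and 648 in the stimulated KO ones. All 4 stimulated values were above the fresh ones, but the log2 estimate of 0.50 gave an adjusted p of 0.059 by edgeR. Srsf1, the prototype SR protein and the highest of its family at a mean of 886 CPM, was at 579, 949, 925 and 1143 CPM in the fresh and 908, 835, 899 and 670.0 in the stimulated libraries. Srsf1 overlapped between states. Hnrnpa1, the textbook opponent of Srsf1 at 5′ splice sites, was at 27.5, 95.2, 92.7 and 80.5 CPM fresh and 47.5, 68.5, 49.3 and 65.4 stimulated, also overlapping. The estimates of Srsf1 and Hnrnpa1 (-0.10 and -0.34) were smaller than their standard errors of 0.18 and 0.41. Hnrnpa1 has many near-identical processed copies in the genome, so its tags may be split in the authors' counting.

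None of the 9 SF3A and SF3B genes passed, and their estimates ran from -0.76 (Sf3a3) to 1.94 (Sf3a2), with a median of -0.06. Sf3b1, the branch point subunit and the highest of this family, was at 471 and 556 CPM in the young fresh WT libraries, 371 and 822 in their KO counterparts, and at 493, 469, 445 and 517 in the stimulated libraries. The stimulated values lay inside the fresh range. Sf3a2, the scarcest member at a mean of 12.2 CPM, was at 2.50 to 12 CPM fresh and 20.2 to 27.8 stimulated without overlap, and its standard error of 0.77 left it at an adjusted p of 0.167 by edgeR.

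The second comparison set the 4 old fresh libraries against the 4 young fresh ones by edgeR's quasi-likelihood test over 10680 genes. It shares its young fresh libraries with the comparison of stimulation. Among the members 6 rose with age (Snrpg, Hnrnpa0, Hnrnpul2, Snrpe, Snrpd2 and Hnrnph3) and none fell, where 1.76% of all genes were called higher and 0.964% lower. Of the 52 members, 36 had positive estimates and 16 (30.8%) had an unadjusted p under 0.05, against 13.2% of all genes. DESeq2 called 12 higher and 2 lower (Snrpf and Sf3b5), and 4.66% and 3.92% of all genes. The members' median log2 change was 0.13, against 0.05 for all genes. All 4 old libraries lay above all 4 young fresh ones for 9 members (17.3%), against 4.84% of all genes, and below them for 1 member, Snrpa (1.92%), against 3.59%. Among genes averaging 50 CPM or more, 12.8% of 47 members were called higher, against 4.55% of 3668 genes.

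Of these 6, 3 were Sm ring genes. Snrpg, which encodes SmG, was at 523 and 542 CPM in the young fresh WT libraries and 395 and 267 in their KO counterparts, and at 1159 and 1578 in old fresh WT and 1189 and 1261 in old fresh KO. Every old library was above every young one, and the level was 3.07-fold higher (log2 change 1.62 ± 0.20, adjusted p = 6.7e-05, edgeR). Snrpe, which encodes SmE, was at 280.3, 360.3, 429.9 and 179 CPM in young and 707, 749, 675 and 669.7 in old libraries. These did not overlap either, and the log2 change was 1.15 ± 0.25 (adjusted p = 0.016, edgeR). Snrpd2, which encodes SmD2, was at 31.9, 81.5, 44.8 and 42.3 CPM in young and 140.3, 316, 78.2 and 269.8 in old libraries. Old KO replicate 3 fell inside the young range, and the log2 change was 1.99 ± 0.47 (adjusted p = 0.023, edgeR).

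Snrpf, encoding another protein of the ring, had the opposite sign of estimate. It was at 26.8 and 132 CPM in old fresh WT and 13.7 and 25.4 in old fresh KO, so that 3 of 4 old libraries were below all young fresh ones and WT replicate 2 was inside their range. The log2 estimate of -1.53 ± 0.53 did not pass (adjusted p = 0.170, edgeR), while DESeq2, the fit of all 12 libraries, the replicate block and the fit without old fresh WT replicate 2 called it lower. The ratio of Snrpg to Snrpf tags within a library was 1.67 to 8.04 in young fresh, 1.09 to 1.58 in stimulated and 12 to 87.1 in old fresh libraries. Those 3 ranges do not overlap, and within young fresh libraries the ratio was 8.04 and 5.43 in WT and 2.58 and 1.67 in KO. The ratio does not depend on the scaling of library sizes, and it was chosen after the values were seen.

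**Figure D3:**
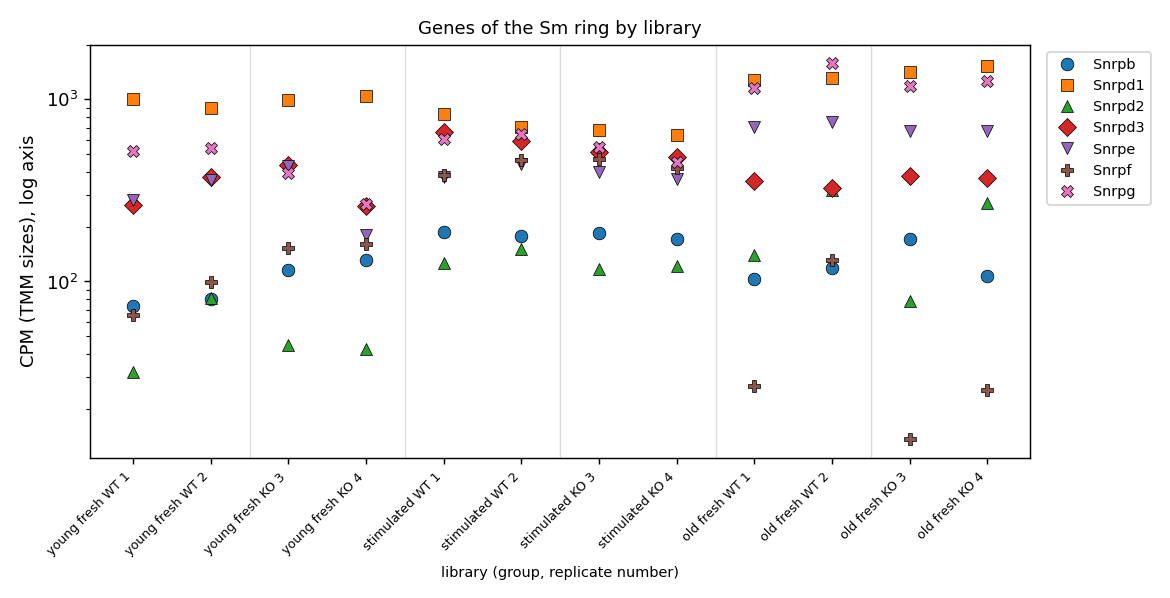
Level in CPM (y axis, log scale) of the 7 Sm ring genes in each of the 12 libraries (x axis), 1 marker a gene. Snrpf lies at 383 to 470 CPM in stimulated libraries and below Snrpb in 3 of 4 old fresh libraries, where Snrpg and Snrpe are at their highest.

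The remaining age calls were hnRNP genes. Hnrnpa0 was at 8060 and 5266 CPM in old fresh WT and 7950 and 7120 in old fresh KO, all above the young fresh maximum of 4754. Its log2 change was 0.93 ± 0.15 (adjusted p = 0.00092, edgeR). At TMM sizes, old fresh, young fresh and stimulated libraries stood in that order with no overlap. On plain library totals, old fresh WT replicate 2 fell below young fresh WT replicate 1. Hnrnpul2, a relative of the scaffold protein hnRNP U, was at 340.4, 456, 389 and 649 CPM in young and 1257, 1099, 962 and 1084 in old libraries. Hnrnpul2 was 2.40-fold higher in old cells (log2 change 1.26 ± 0.21, adjusted p = 0.0014, edgeR). Hnrnph3, a member of the hnRNP H/F group that binds G-rich RNA, was at 183, 153, 164 and 217 CPM in young, 441 and 450.2 in old WT and 331 and 285 in old KO libraries. The old values lay above all young ones, and the log2 change was 1.04 ± 0.25 (adjusted p = 0.030, edgeR). Hnrnph3 was the sixth of these calls by adjusted p and is named beyond the rule of 5.

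Snrpg, Hnrnpa0, Hnrnpul2 and Snrpe kept their calls under all 14 alternatives. Snrpd2 lost it without old fresh KO replicate 4 (log2 change 1.42, adjusted p = 0.132, edgeR) and with voom weights (adjusted p = 0.123, limma). Hnrnph3 lost it without young fresh WT replicate 2, young fresh KO replicate 3 or old fresh KO replicate 3 (adjusted p up to 0.083, edgeR). Without young fresh WT replicate 1, the library without Xist, all 6 were called and U2af1 with them. Without young fresh WT replicate 2, 10 members and 2.04% of all genes were called higher. Pf4, a platelet gene of the megakaryocyte list, also rose with age (1.33 ± 0.28, adjusted p = 0.011, edgeR). It was at 490 and 292 CPM in old fresh WT, inside the young fresh range of 164 to 556, and at 2075 and 1230 in old fresh KO. Cd34, a progenitor surface marker, fell (-1.42 ± 0.29, adjusted p = 0.010, edgeR), as did Hlf of the same marker list (-0.87 ± 0.20, adjusted p = 0.019, edgeR). The neutrophil genes Ngp, S100a8 and S100a9 were called lower. Of the proliferation markers, Mki67 was called higher and Top2a lower. The part of these markers in the age calls was not tested.

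Members of the other families did not pass with age in the edgeR fit of the 8 fresh libraries, and 3 of them, Srsf5, Srsf7 and U2af1, did so under several alternatives. Among the SR genes 9 of 10 estimates were positive with a median of 0.24, and Srsf7 had the smallest p (0.71 ± 0.20, adjusted p = 0.067, edgeR). Srsf7 was called higher in 7 of 14 alternatives, among them no filter on low counts, DESeq2, all 12 libraries and the replicate block. Srsf5 (0.73 ± 0.25, adjusted p = 0.156, edgeR) was also called higher in 7 of 14. Srsf2 was at 572, 589, 653 and 830.4 CPM in old libraries and Srsf1 at 724, 809.8, 1043 and 1151, both overlapping the young values. U2af1, the small U2AF subunit that reads the AG of the 3′ splice site, was at 161, 119, 119.7 and 58.0 CPM in young and 525, 187, 149.9 and 297 in old libraries. It overlapped only through old KO replicate 3, and its estimate of 1.33 ± 0.37 gave an adjusted p of 0.067 by edgeR. U2af1 was called higher in 10 of 14 alternatives, the 4 settings named for Srsf7 and 6 of the 8 runs with 1 library left out. U2af2 stood at 121, 45.9, 35.6 and 75.6 CPM in old libraries, across the young range. For SF3A and SF3B 6 of 9 estimates were negative, with a median of -0.31, and Sf3b1 was at 533, 419, 705 and 675 CPM in old libraries against 371 to 822 in young ones. Snrpa, which encodes the U1 A protein, was at 3.71, 3.00, 0.694 and 1.86 CPM in old and 7.41 to 42.3 in young libraries, with an estimate of -2.91 and a standard error of 1.81. Hnrnpa1 was at 82.0, 126, 83.1 and 41.5 CPM in old libraries and overlapped the young ones.

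**Figure D4:**
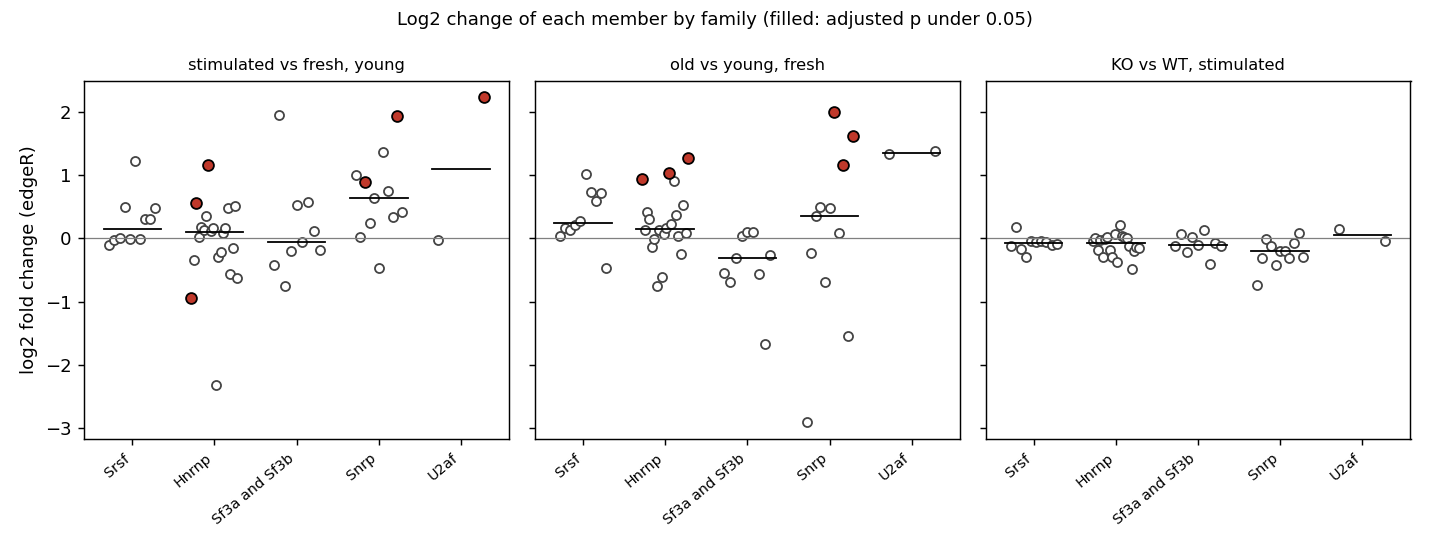
Log2 fold change from edgeR (y axis, shared) of each of the 52 members by family (x axis) for stimulation, age and genotype in stimulated cells, with filled points for an adjusted p under 0.05 and lines at family medians. There are 6 filled points for stimulation, 6 for age and 0 for genotype, and the genotype panel is far narrower than the other two.

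The third comparison asked whether the genotype changed these transcripts in stimulated cells, where replicates were closest. No member passed edgeR's quasi-likelihood test in the 4 stimulated libraries, where 1.23% of 10494 genes were called, and 7 members (13.5%) had an unadjusted p under 0.05, against 10.9% of all genes. All 7 had negative estimates, as did 516 of the 1143 genes. DESeq2 called none, and voom with a weight per group called 1 lower, Hnrnpab, and 0.979% of all genes. Estimates ran from -0.74 (Snrpa) to 0.21 (Hnrnph3). They were negative for 39 of the 52 members, with a median of -0.10 against 0.00 for all genes. On plain library totals 36 were lower, with a median of -0.08. Both KO libraries lay below both WT libraries for 23 members (44.2%), against 22.6% of genes, and above them for 3 (5.77%), against 19.5%.

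The shift was small in the family medians, and no member passed. Snrpa had the largest estimate, at -0.74 ± 0.26 (adjusted p = 0.255, edgeR). The Snrp family had 10 of 11 estimates negative and a median of -0.20, the SR genes 9 of 10 and -0.08, the SF3A and SF3B genes 6 of 9 and -0.11, and the Hnrnp genes 13 of 20 and -0.08. The smallest p belonged to Hnrnpr, an hnRNP related to Syncrip, at 165 and 178 CPM in the stimulated WT libraries and 123 and 119 in the stimulated KO ones. It was lower in both KO libraries, with an estimate of -0.48 ± 0.15 and an adjusted p of 0.181 by edgeR. Summed proliferation markers were at 1948 and 2079 CPM in the stimulated WT libraries and 1626 and 1468 in the stimulated KO ones, and Top2a was called lower. Summed megakaryocyte markers were at 248 and 133 CPM in WT and 436 and 477 in KO, and Pf4 was called higher (1.39 ± 0.21, adjusted p = 0.0048, edgeR). Among 9 genes of the stem and progenitor gate, Mecom, a stem cell transcription factor gene, was higher in KO (1.16 ± 0.25), and the progenitor markers Cd34 (-0.78 ± 0.16) and Flt3 (-1.77 ± 0.24) were lower, with adjusted p of 0.031, 0.024 and 0.0024 by edgeR. In the fit of all 12 libraries, which shares the spread with the fresh libraries, edgeR called 0 of 11548 genes in this comparison. The part of these markers in the shift was not tested.

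In fresh cells the genotypes were compared in the fit of the 8 fresh libraries. No member and 0 of 10680 genes (0%) were called by edgeR between KO and WT in young fresh cells. In that test 519 genes (4.86%) and 3 members (5.77%) had an unadjusted p under 0.05. DESeq2 called 52 genes higher and 85 lower there, none of them members. Hnrnpu, which encodes a nuclear scaffold hnRNP, gave the smallest p, at 926 and 1359.7 CPM in WT and 1852 and 1904 in KO. Both KO libraries were higher, by 0.71 ± 0.24 on the log2 scale, with an adjusted p of 0.955 by edgeR. In old fresh cells edgeR also called 0 of 10680 genes (0%), with 428 genes (4.01%) and 3 members (5.77%) at an unadjusted p under 0.05. DESeq2 called 56 genes higher and 49 lower, none of them members. Snrpf gave the smallest p there, with an estimate of -2.01 ± 0.76 and an adjusted p of 1.0 by edgeR.

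No member passed edgeR's test of whether the genotype altered the response to stimulation or to age. For genotype by stimulation, edgeR called 0 of 10786 genes (0%), with 1031 genes (9.56%) and 5 members (9.62%) at an unadjusted p under 0.05. Hnrnpa2b1 gave the smallest of these p-values. Its fresh KO libraries were above the fresh WT ones and its stimulated KO libraries below the stimulated WT ones, with a difference of changes of -0.88 ± 0.22 and an adjusted p of 0.406 by edgeR. DESeq2 called 127 genes higher and 55 lower in this interaction, Hnrnpa2b1 among the latter with an adjusted p of 0.012. For genotype by age, edgeR called 0 of 10680 genes (0%), with 587 genes (5.5%) and 4 members (7.69%) at an unadjusted p under 0.05. DESeq2 called 68 higher and 36 lower, none of them members. Snrpf had the smallest p (-2.92 ± 1.06, adjusted p = 0.902, edgeR).

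Other splicing genes were read from 4 further lists. Beside the counts below, edgeR called 2.27% of all genes higher and 1.84% lower with stimulation, and 1.76% and 0.964% with age. Of 59 tested components of the spliceosome outside the 52, 4 rose with stimulation and 0 fell, 41 had positive estimates, and the median was 0.38. For all genes tested, 6341 of 10786 estimates were positive, with a median of 0.21. Snrnp40, a U5 snRNP protein, rose from 62.1 to 101 CPM in young fresh to 240 to 267 CPM in stimulated libraries (log2 change 1.67 ± 0.16, adjusted p = 0.0020, edgeR). Snrnp25, of the minor spliceosome, rose from 4.08 to 23.9 CPM to 73.0 to 111 CPM (2.67 ± 0.45, adjusted p = 0.020, edgeR). The other calls were Snrnp200 and Phf5a, the latter a subunit of SF3B that the symbols searched do not cover. With age, Prpf19 and Snrnp70 rose among 58 tested.

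Of 40 tested RNA-binding regulators outside the hnRNP and SR symbols, 4 rose with stimulation (Ybx1, Elavl1, Ptbp1 and Raly) and 1 fell, Mbnl1. Ybx1, encoding a Y-box RNA-binding protein, was at 116 to 205 CPM in young fresh and 333 to 382 in stimulated libraries (1.13 ± 0.20, adjusted p = 0.021, edgeR). Mbnl1, encoding a muscleblind splicing regulator, was at 609 to 702 CPM fresh and 413 to 430 stimulated (-0.65 ± 0.11, adjusted p = 0.018, edgeR). With age 2 rose, Ptbp1 and Son. Ptbp1, the polypyrimidine tract-binding protein, was at 113 to 185 CPM in young fresh, 256 to 272 in stimulated and 295 to 381 in old fresh libraries.

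Of 17 exon junction and nonsense-mediated decay genes, Eif4a3 (1.62 ± 0.23) and Magoh (1.43 ± 0.23) rose with stimulation and Upf2 fell (-0.96 ± 0.17). Their adjusted p-values by edgeR were 0.012, 0.018 and 0.021. None of 16 passed with age. Of the 10 tested kinases that phosphorylate SR proteins or related factors, none passed with stimulation, and Clk4 was nearest at an adjusted p of 0.054 by edgeR, at 0 to 6.84 CPM in young fresh and 12.5 to 19.8 in stimulated libraries. Prpf4b was next (-0.45 ± 0.18, adjusted p = 0.163, edgeR), and with age Prpf4b fell, from 209 to 338 CPM to 46.2 to 198 CPM (-1.55 ± 0.33, adjusted p = 0.012, edgeR). None of the 4 lists had a member called by edgeR between the genotypes. Of the 12 genes of these lists called with stimulation, Snrnp40 kept its call without any 1 of the stimulated libraries. The other 11 lost it in each of those 4 runs. With age, Prpf4b, Prpf19, Snrnp70 and Son kept their calls under all 14 alternatives. Ptbp1 kept its age call under 13 of 14 and lost it without young fresh WT replicate 1, the library without Xist.

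The last 500 bases of each of the 52 members were compared with the GENCODE M21 annotation. No member shared those bases with an exon of another gene on its own strand. On the opposite strand 4 did, Hnrnpab with Phykpl, Snrpf with Ccdc38, Srsf2 with Mettl23 and Srsf4 with Gm12992, and their values carry the uncertainty given for Snrpf.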

How the data were processed

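RNA was measured in 12 libraries, 6 groups of 2, by QuantSeq 3′ mRNA-Seq (Lexogen). Files deposited by the authors hold raw counts for each gene symbol, from HISAT2 2.2.1 and HTSeq 0.9.1 on mm10, per the submitters' processing notes. DESeq2 1.34.0 is listed there too and gave nothing used here. The annotation, strand setting and read filters are not given in the sources used here.

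Counts were analysed in R 4.3.3 with edgeR 4.0.16 (quasi-likelihood test, TMM scaling, filterByExpr with minimum count 10 and minimum total 15) and Benjamini-Hochberg adjustment over all genes tested, threshold 0.05. Separate fits were made on the 8 young, the 4 stimulated and the 8 fresh libraries, of which the first shares 1 spread per gene between stimulated and fresh libraries, and the code was tested on simulated data. The standard errors given with edgeR were not taken from the fit. Each is the size of the log2 change divided by the square root of the quasi-likelihood F statistic. Alternatives were RLE scaling, no filter, DESeq2 1.42.0, all 12 libraries in 1 fit, limma 3.58.1 voom with a weight per group, a replicate block and each library left out in turn.

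The members and lists were chosen with earlier results of these data known. Named genes were the members called (up to 10 a direction for stimulation and 5 elsewhere, or the smallest p where none was called), the highest member of each family, Srsf1, Srsf2, Sf3b1, U2af1 and Hnrnpa1, and for other lists the 2 with the smallest adjusted p in stimulated against fresh. Further names were chosen after their values were seen. Libraries of a group differed beyond sampling noise, so each counted as 1 replicate. A gene of the further lists is not reported here.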

Additional observations from a re-analysis of the deposited data

How the results depend on the processing

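Counts of members called moved by over 1.5 times under these settings. For stimulated against fresh, the 5 members higher became 9 with DESeq2, 3 with all 12 libraries in 1 fit and 1 to 12 with 1 library left out, and the 1 member lower became 2 with RLE scaling, 4 with DESeq2, 3 with voom weights and 0 to 3 with 1 library left out. For old against young, the 6 higher became 12 with DESeq2 and 6 to 10 with 1 library left out, and the 0 lower became 2 with DESeq2, 1 with all 12 libraries and 0 to 1 with 1 library left out. Hnrnpab was the 1 member called lower between genotypes in stimulated cells with voom weights, and Hnrnpa2b1 the 1 called in genotype by stimulation with DESeq2. Calls over all genes moved as well: for stimulated against fresh, the 245 higher became 872 with DESeq2, 151 with all 12 libraries, 403 with voom weights and 21 to 1327 with 1 library left out. The 199 lower became 241 with RLE scaling, 669, 174, 309 and 30 to 544. For old against young, the 188 higher became 498 with DESeq2, 327 with all 12 libraries and 183 to 370 with 1 library left out, and the 103 lower became 419, 250 and 104 to 207. For KO against WT in stimulated cells, the 80 higher became 204 with no filter and 0 with all 12 libraries. The 49 lower became 136 with no filter, 0 with all 12 libraries and 113 with voom weights. With 1 stimulated library left out, 1 genotype holds only 1 library, and those counts are not given. The cause of these moves was not tested. None of the members named for a call or for the smallest p, and none of the 8 genes named from the other lists, changed sign under the alternatives run. Uncalled members with estimates near 0 did. For stimulation, U2af1 was at 0.026 with voom weights and 0.024 with the replicate block, and with 1 library left out it ran from -0.23 to 0.30, Srsf1 from -0.25 to 0.10, Sf3b1 from -0.42 to 0.15 and Hnrnpa1 from -0.64 to 0.24. For age, Srsf1 ran from -0.12 to 0.23, Sf3b1 from -0.19 to 0.38 and Hnrnpa1 from -0.18 to 0.71. Same-numbered libraries did not deviate together (r from -0.0132 to 0.0118 over 6 pairs of groups), so no pairing by number was seen. With replicates this far apart in fresh groups, the check cannot show whether same-numbered libraries shared an animal or a batch. With the number as a replicate block, 8 members were higher with stimulation, against 5 without it, and 1 was lower with age, Snrpf, against 0. For KO against WT no paired analysis was possible because the genotypes carry different numbers. With a limit of 10 or 500 counts there would be 53 or 51 members. Depth limits the scarce members most, such as Sf3a2, with 446 counts over the 12 libraries.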
